A study of Mus musculus with 13 samples.

Results

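The genes described here are 9 transcripts of blood cells: the adult globin genes *Hbb-bs*, *Hbb-bt*, *Hba-a1* and *Hba-a2*, the embryonic globin genes *Hbb-y* and *Hba-x*, the erythroid heme enzyme gene *Alas2*, and the leukocyte genes *Lyz2* and *Ptprc*. They were chosen by name, as the genes of the count table whose identifier carries one of these symbols in GENCODE M21, and each symbol matched 1 of the 55335 genes. The study asked what the glucocorticoid receptor (GR, encoded by *Nr3c1*) does in female germ cells, and read RNA by 3′ Tag-Seq, which counts reads from the 3′ end of polyadenylated transcripts. Each of the 13 libraries came from the ovary pair of 1 female embryo at E17.5, from which cells carrying a *Pou5f1*-GFP reporter transgene (also called Oct4-GFP) were sorted. The sort gate was GFP, with doublets and dead cells gated out, and no blood marker was named in it.

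The groups came from a pair of crosses. In the constitutive cross, parents heterozygous for a deleted *Nr3c1* allele gave WT embryos (n = 3) and KO embryos (n = 3) that lacked GR in every cell, blood cells included. In the conditional cross, all parents were homozygous for an *Nr3c1* allele with a floxed exon 3, and tamoxifen (125 μg / g) was injected into the dams at E10.5. It gave flox controls (n = 3) and cKO embryos (n = 4), in which a tamoxifen-activated CreERT2 made from the *Pou5f1* locus was used to delete exon 3. The study describes this Cre as specific to germ cells, whereas the KO allele is lost in blood cells too. All embryos of both crosses were sired by males with the GFP transgene, and no tamoxifen is named for WT and KO. The flox and cKO labels carry the same strain name with the Cre allele in it, but the study describes the flox controls as Cre-negative. Cross, tamoxifen, floxed allele and any difference in handling day cannot be told apart in a comparison of the crosses. The 13 embryos were biological replicates by their labels.

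Red blood cells of a mouse embryo come in waves. Primitive erythroid cells, made in the yolk sac, use the embryonic chains Hbb-y and Hba-x, and definitive erythroid cells, made in the fetal liver, use the adult chains. Each hemoglobin joins a pair of alpha-like and a pair of beta-like chains with heme, and Alas2 is the erythroid enzyme of the first step of heme synthesis. Lyz2 is a lysozyme of macrophages and other myeloid cells, and Ptprc (CD45) is a surface phosphatase of nearly all leukocytes.

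The beta-like genes lie on chromosome 7 and the alpha-like genes on chromosome 11. In mm10, the build of the count table, *Hbb-bt* spans chr7:103812524-103813996, *Hbb-bs* chr7:103826534-103828096 and *Hbb-y* chr7:103851749-103853216, all on the minus strand. *Hba-x* spans chr11:32276400-32278116, *Hba-a1* chr11:32283511-32284465 and *Hba-a2* chr11:32296489-32297298, all on the plus strand. None of these 6 genes overlapped another gene. *Lyz2* (chr10:117277331-117282321, minus strand) also overlapped none, and 5.2% of the *Ptprc* interval (chr1:138062861-138175708, minus strand) was shared with *A130071D04Rik*. *Alas2* (chrX:150547375-150570638, plus strand) lies wholly inside the annotated interval of *Apex2*.

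The promoters of the 6 globin genes are shown so that the adult genes can be read beside the embryonic ones that gave no count. Each stretch is the last 120 bases before the start site in RefSeq on GRCm38.p6, written 5′ to 3′ on the gene's strand. Capitals mark matches, on either strand, to the CACC box strings CCACACCC and CCACCC, to the CAAT box string CCAAT, to the GATA strings AGATAA and TGATAA, or to the TATA-like strings ATATAA and ATAAA.
Hbb-bs, chr7:103827929-103828048, minus strand: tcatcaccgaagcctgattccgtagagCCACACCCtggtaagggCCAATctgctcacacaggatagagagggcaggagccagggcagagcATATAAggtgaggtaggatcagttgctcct
Hbb-bt, chr7:103813924-103814043, minus strand: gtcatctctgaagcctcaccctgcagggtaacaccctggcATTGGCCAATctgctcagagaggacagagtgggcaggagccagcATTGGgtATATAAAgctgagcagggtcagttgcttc
Hbb-y, chr7:103853208-103853327, minus strand: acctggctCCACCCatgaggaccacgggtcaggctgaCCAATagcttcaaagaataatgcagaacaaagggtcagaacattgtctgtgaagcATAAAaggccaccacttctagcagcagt
Hba-a1, chr11:32283552-32283671, plus strand: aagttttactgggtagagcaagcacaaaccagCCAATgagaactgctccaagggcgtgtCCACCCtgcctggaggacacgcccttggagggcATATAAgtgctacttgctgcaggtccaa
Hba-a2, chr11:32296372-32296491, plus strand: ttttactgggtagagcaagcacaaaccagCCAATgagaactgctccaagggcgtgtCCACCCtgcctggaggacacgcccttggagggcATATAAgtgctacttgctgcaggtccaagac
Hba-x, chr11:32276480-32276599, plus strand: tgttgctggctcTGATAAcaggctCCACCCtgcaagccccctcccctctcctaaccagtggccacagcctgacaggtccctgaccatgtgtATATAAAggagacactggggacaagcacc

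In windows of 250 bases before to 50 bases after the start site, CCACACCC was present in *Hbb-bs* and in none of the other 5 globin genes, and in 3.56% of 32851 promoters in the RefSeq table. CCACCC was present in the other 5 globin genes and in 31.5% of all promoters. CCAAT was present in 5 of the 6 globin genes, with *Hba-x* the exception, and in 37.4% of promoters. The GATA-type strings AGATAA or TGATAA were present in every globin window but that of *Hbb-bt*, and in 18.6% of promoters. ATATAA or ATAAA was present in all 6, and in 42.1% of promoters. ATATAA and ATAAA overlapped where ATATAAA occurred. A match in these letters is a description of the sequence and not a measured binding site.

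Some members are close copies of each other, which limits how reads could be told apart. The transcripts of *Hba-a1* and *Hba-a2* were identical at 537 of 538 aligned bases, and 86.9% of the 50-base windows of *Hba-a2* also occurred in *Hba-a1*. The transcripts of *Hbb-bs* and *Hbb-bt* were 92.7% identical, and 65.8% of the windows of *Hbb-bs* occurred in *Hbb-bt*. *Lyz2* and its neighbouring copy *Lyz1* were 96.0% identical, with 15.4% of *Lyz2* windows found in *Lyz1*. The embryonic genes were more distant: *Hbb-y* was 69.4% identical to *Hbb-bs* and *Hba-x* 62.6% identical to *Hba-a1*, and neither pair shared a window. Values within the *Hba-a1* and *Hba-a2* pair and within the *Hbb-bs* and *Hbb-bt* pair are therefore uncertain as a split, and so is the balance of alpha to beta counts if shared reads were dropped. The sources used here do not say how reads that matched both copies were counted.

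Total counts ran from 2048706 to 3674989 per library (median 2483236). Levels are given as CPM, each count relative to the size of its library after TMM scaling, which corrects library sizes for composition. As a check of the sorted cells, the summed level of 10 fetal oocyte genes such as *Ddx4* and *Dazl* was 13640 to 22310 CPM per library. Its largest parts were *Sycp1*, *Smc1b* and *Tex15*. The sum of 15 ovarian somatic genes was 106 to 302 CPM. *Sycp3* of the oocyte list and *Tcf21* of the somatic list were at 0 in all libraries, and each lies wholly inside the interval of another gene. The *Nr3c1* count was 61 to 216 in WT, 54 to 167 in KO, 105 to 215 in flox and 82 to 211 in cKO. The floxed segment is exon 3, away from the 3′ end that the method reads, and the ranges of WT and KO overlapped. In single-cell RNA-seq of KO ovaries at an earlier stage, also by a 3′ method, the paper reported a loss of *Nr3c1* transcript across ovarian cell types. What sets the counts here apart from that result was not tested. In the fits, 13086 genes passed the filter on low counts, among them 4 of the 9 genes described here: *Hbb-bs*, *Hbb-bt*, *Hba-a1* and *Lyz2*.

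Adult globin RNA was present in 12 of the 13 libraries, and the embryonic globins gave no count in any. The 4 adult genes together had 8222 counts, with 51.7% from *Hbb-bs*, 25.9% from *Hba-a1* and 2.43% from *Hba-a2*, and *Hbb-bt* gave the rest. *Hbb-y* and *Hba-x* were at 0 in all 13 libraries. A count of 0 allows up to 3 counts, which is 0.0365% of the adult globin counts over all libraries, and adult counts were at least 2741-fold above that limit. Within single libraries that had globin counts, the limit for the embryonic pair was 0.816 to 1.46 CPM of total counts. The other embryonic and minor globin genes of both clusters, *Hbb-bh0*, *Hbb-bh1*, *Hbb-bh2*, *Hbq1a* and *Hbq1b*, were also at 0 in all 13 libraries. The sources used here name no molecular identifiers, so this limit and the intervals given below cover counting error only.

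The summed adult globin count was 215, 190 and 876 in WT replicates 1 to 3, and 400, 232 and 0 in the KO replicates. It was 3130, 848 and 581 in the flox replicates, and 521, 197, 478 and 554 in the cKO replicates. These counts made up 0.00784% to 0.126% of the library in the 12 libraries with any. On the CPM scale, WT libraries had 95.2, 88.8 and 239, a mean of 141 ± 85.2 (SD, n = 3). KO libraries had 152, 112 and 0, a mean of 88.3 ± 79.0 (SD, n = 3), or 132 without replicate 3. The flox libraries had 1308, 371 and 281, a mean of 653 ± 569 (SD, n = 3), or 326 without replicate 1. The cKO libraries had 175, 77.2, 175 and 193, a mean of 155 ± 52.5 (SD, n = 4). All 3 flox libraries were above all libraries of the other groups, while the ranges of WT, KO and cKO overlapped each other. The lowest flox library (281 CPM) was close to the highest WT library (239 CPM). Of all tested genes, 4.91% had no overlap between cKO and flox, and no such share was computed for flox against all other groups. In bulk RNA, fewer cells of a type and less RNA per cell cannot be told apart.

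**Figure D1:**
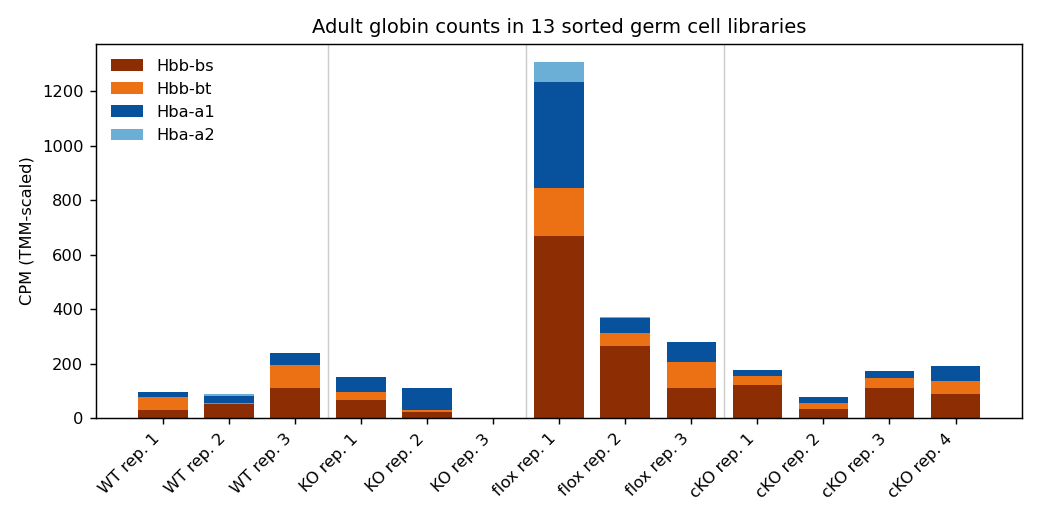
Summed level of the 4 adult globin genes in each of the 13 libraries (x axis), in TMM-scaled CPM (y axis), stacked by gene. The bar of flox replicate 1 reaches 1308 CPM, KO replicate 3 has no bar, and the remaining libraries lie between 77.2 and 371 CPM.

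A pair of libraries stood apart from the rest. The library of flox replicate 1 held 38.1% of all adult globin counts, 3.53 times the CPM of the next highest library and 17.0 times that of the lowest library with any. Its other values were less extreme: 1214 of 13086 tested genes (9.28%) were highest in it, its oocyte gene sum was 13640 CPM, the lowest of 13, and its somatic gene sum was 165 CPM. The library labelled KO replicate 3 had no count of any globin, against a limit of 1.31 CPM, and the lowest of the other 12 libraries lay 58.9-fold above this limit. Its total count, 2483236, was the median of the 13, and it also had the most tested genes that were at 0 in that library alone, 208, against 10 to 139 in the other libraries. *Hbb-bs*, *Hbb-bt* and *Hba-a1* were among 36 tested genes with 0 counts there and at least 13 counts in each other library, where 13 is the lowest count of *Hbb-bt* elsewhere. For this reason the fold changes of the adult globins below are also given with these libraries left out, singly or together. Leaving out both was a choice made after the data were seen.

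*Hbb-bs*, a major adult beta chain, was the most abundant member. Its counts were 66, 110 and 406 in WT, 171, 49 and 0 in KO, 1598, 609 and 227 in flox, and 361, 91, 302 and 257 in cKO. The group means were 63.9 ± 42.3 CPM in WT, 29.6 ± 33.0 in KO and 348 ± 288 in flox (SD, n = 3 each), and 89.2 ± 38.1 in cKO (SD, n = 4). The levels overlapped between KO and WT, between cKO and flox, and between the crosses. The lowest flox library (110 CPM) lay below the highest cKO library (122 CPM), but above all KO libraries.

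*Hbb-bt*, the other adult beta chain, had counts of 111, 13 and 313 in WT, 81, 16 and 0 in KO, 423, 110 and 203 in flox, and 98, 47, 97 and 132 in cKO. Its means were 46.9 ± 39.8 CPM in WT, 12.9 ± 16.1 in KO and 108 ± 64.9 in flox (SD, n = 3 each), and 33.2 ± 11.3 in cKO (SD, n = 4). Its lowest flox library (48.1 CPM) was just above its highest cKO library (45.9 CPM), so these groups did not overlap, which held for 4.91% of all tested genes. WT and KO overlapped, as they did for all but 9.41% of tested genes.

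*Hba-a1*, an adult alpha chain, had counts of 38, 52 and 157 in WT, 148, 167 and 0 in KO, 929, 124 and 151 in flox, and 62, 59, 79 and 165 in cKO. The means were 28.0 ± 13.4 CPM in WT, 45.8 ± 41.5 in KO and 172 ± 188 in flox (SD, n = 3 each), and 32.6 ± 16.9 in cKO (SD, n = 4). KO replicates 1 and 2 were above all WT libraries for this gene, and KO replicate 3 was below them. *Hba-a2*, its near-identical copy, had counts in 3 libraries only: 180 in flox replicate 1, 15 in WT replicate 2 and 5 in flox replicate 2.

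**Figure D2:**
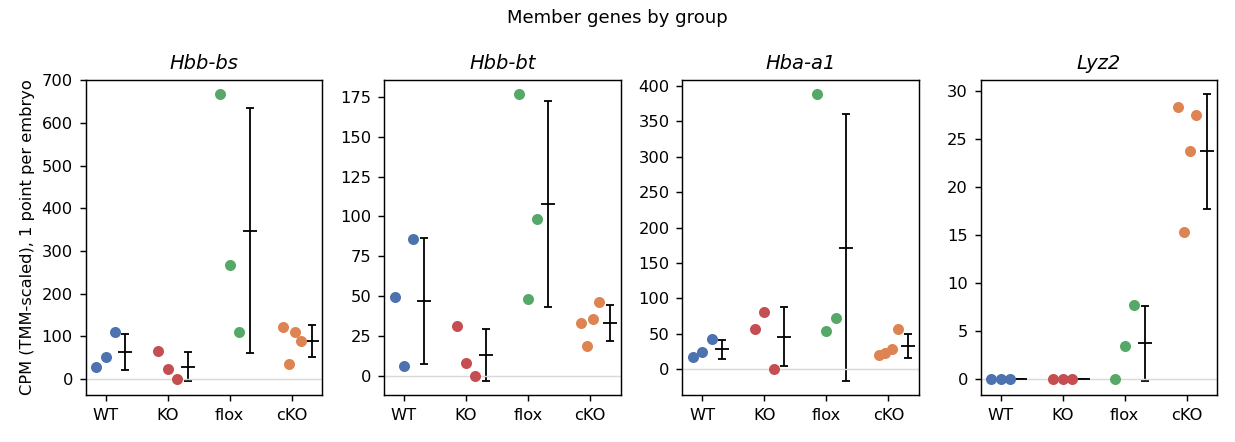
Level of *Hbb-bs*, *Hbb-bt*, *Hba-a1* and *Lyz2* by group in TMM-scaled CPM (y axis, own scale per panel), with 1 point per embryo and the mean ± SD beside the points (n = 3 for WT, KO and flox, 4 for cKO). The highest globin point is flox replicate 1 in each panel (668, 177 and 388 CPM), and *Lyz2* is at 0 in all 6 WT and KO embryos.

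The balance between the chains varied among embryos by more than counting error. *Hbb-bs* made up 37.3% of the adult beta counts in WT replicate 1 (95% Clopper-Pearson interval 30.2 to 44.9) and 89.4% in WT replicate 2 (82.6 to 94.2), 2 embryos of 1 group. In the flox group it was 79.1%, 84.7% and 52.8%, and the interval of replicate 3 (48.0 to 57.6) lay below those of replicates 1 and 2. In cKO it ran from 65.9% to 78.7%. The median over 12 libraries was 71.6%, and *Hbb-bs* exceeded *Hbb-bt* in 11 of 12. Per length of transcript (628 nt for *Hbb-bs*, 703 nt for *Hbb-bt*), *Hbb-bs* had 6763 and *Hbb-bt* 2339 counts per kb over all libraries, and the same number of libraries, 11, favoured *Hbb-bs*. Reads from the 3′ end need not scale with length, so both forms are given.

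Alpha chains made up 11.9% to 71.98% of adult globin counts (median 27.9%). The highest share, 71.98% in KO replicate 2 (95% Clopper-Pearson interval 65.7 to 77.7), was the only one at which alpha exceeded beta counts. The lowest was 11.9% in cKO replicate 1 (9.25 to 15.0). Per kb of transcript, alpha chains were 27.3% of the adult total, and beta exceeded alpha in 11 of 12 libraries. The shares were 37.0% (32.3 to 41.9) and 71.98% in KO replicates 1 and 2, both above every other library. They ran from 17.7% to 35.3% in WT, 15.2% to 35.4% in flox and 11.9% to 29.95% in cKO. The interval of KO replicate 1 covered the highest WT and flox shares. KO replicate 3 had no globin count and so gave no share, and the difference between groups in this share was not tested. Without flox replicate 1 the median was 25.99%.

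**Figure D3:**
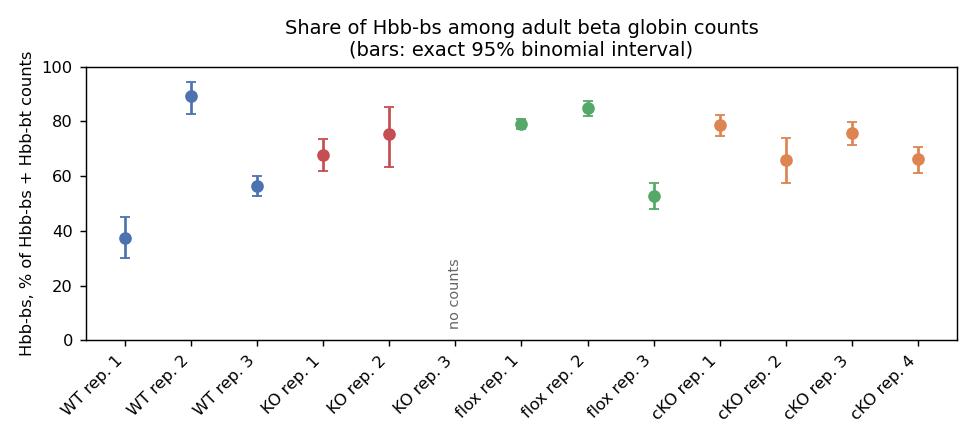
Share of *Hbb-bs* in the summed counts of *Hbb-bs* and *Hbb-bt* (y axis, %) in each library (x axis), with exact 95% binomial intervals for counting error. Shares run from 37.3% to 89.4%, the 3 WT embryos do not overlap in their intervals, and KO replicate 3 has no counts.

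In KO against WT embryos, no adult globin passed the test. In edgeR's quasi-likelihood fit, adjusted by Benjamini and Hochberg's method over 13086 genes, the log2 fold change was -1.11 ± 0.79 (SE) for *Hbb-bs* (adjusted p = 0.961) and -1.86 ± 0.91 for *Hbb-bt* (adjusted p = 0.85). For *Hba-a1* it was 0.70 ± 0.87 (adjusted p = 1.0), with a 95% interval from -1.11 to 2.504. Without KO replicate 3 the log2 fold changes were -0.52, -1.27 and 1.29 in the same order. Leaving out each library in turn moved them from -2.44 (without KO replicate 1) to -0.44 (without WT replicate 3) for *Hbb-bs* and from -3.60 to -1.09, without the same libraries, for *Hbb-bt*. For *Hba-a1* the range was 0.0093 (without KO replicate 2) to 1.29. The direction for *Hba-a1* depended on the scale, since limma voom gave -1.50 and the difference of mean log2 CPM was -0.80, or 1.35 without KO replicate 3. Over all tested genes 0% were called in this comparison, and 5.8% had an unadjusted p under 0.05, none of the 3 globins among them. The median log2 fold change was -1.11 over the 3 globins and -0.03 over all tested genes. An exact permutation test of 3 embryos against 3 cannot give a p below 0.1, and for the 4 adult globins it gave 0.3 to 1.0.

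In cKO against flox embryos, where both groups had tamoxifen and only the germ cells were targeted, the 3 tested adult globins were lower in cKO and none passed the adjusted threshold. The log2 fold change was -2.40 ± 0.82 for *Hba-a1* (edgeR), -1.96 ± 0.72 for *Hbb-bs* and -1.70 ± 0.81 for *Hbb-bt*. The adjusted p was 0.999 for each. All 3 had an unadjusted p under 0.05 in this direction, against 1.83% of all tested genes, and 0% were called after adjustment. These genes are not independent of each other, since 1 library raises them all. Without flox replicate 1 the log2 fold changes were -0.97, -1.07 and -1.14 in the same order, with an adjusted p of 1.0 for each in edgeR. When the filter on low counts was dropped, *Hba-a1* (adjusted p = 0.00158) and *Hbb-bs* (adjusted p = 0.000505) passed the adjusted threshold in edgeR. The exact permutation test gave p = 0.0571 for *Hbb-bt* (adjusted p = 0.257 over 18 tests), 0.114 for *Hba-a1* and 0.171 for *Hbb-bs*. In this two-sided test of 4 embryos against 3, fully separated groups give 0.0571, so it cannot reach 0.05.

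The difference between the effects of the constitutive and the conditional deletion was also fitted. For *Hba-a1* the KO effect exceeded the cKO effect by 3.10 ± 1.199 on the log2 scale (edgeR, adjusted p = 1.0). For *Hbb-bs* the difference was 0.86 ± 1.06 and for *Hbb-bt* -0.16 ± 1.18, with adjusted p of 1.0 for both. *Hba-a1* had an unadjusted p under 0.05, as did 4.37% of all tested genes, and 0% were called. Without flox replicate 1 the differences were 1.68, -0.03 and -0.71 for *Hba-a1*, *Hbb-bs* and *Hbb-bt*, and without KO replicate 3 they were 3.69, 1.44 and 0.43. Without both they were 2.26, 0.55 and -0.13. The *Hba-a1* difference passed the adjusted threshold without the filter on low counts (3.11, adjusted p = 0.0271).

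Between the conditional cross (flox and cKO, n = 7) and the constitutive cross (WT and KO, n = 6), none of the 3 tested adult globins passed the adjusted threshold, and the fitted values lay above 0. The log2 fold change was 2.01 ± 0.56 for *Hbb-bs* (edgeR, adjusted p = 0.631), 1.27 ± 0.61 for *Hbb-bt* (adjusted p = 0.877) and 1.06 ± 0.60 for *Hba-a1* (adjusted p = 0.912). An unadjusted p under 0.05 with a higher level in the conditional cross was found for *Hbb-bs* and *Hbb-bt*, and for 3.36% of all tested genes. Of all tested genes, 0.00764% (1 gene) passed the adjusted threshold, and it was not a globin. Without the filter on low counts *Hbb-bs* passed it (adjusted p = 5.13e-09). The exact permutation test gave p = 0.0221 for *Hbb-bs* (adjusted p = 0.199 over 18 tests). Without both flox replicate 1 and KO replicate 3 the log2 fold change of *Hbb-bs* was 1.29, that of *Hbb-bt* 0.72 and that of *Hba-a1* 0.06. For *Hba-a2*, which was too sparse to be fitted, the difference of mean log2 CPM was 0.66, or -0.23 without flox replicate 1. This comparison and the cKO comparison share the flox and cKO libraries.

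**Figure D4:**
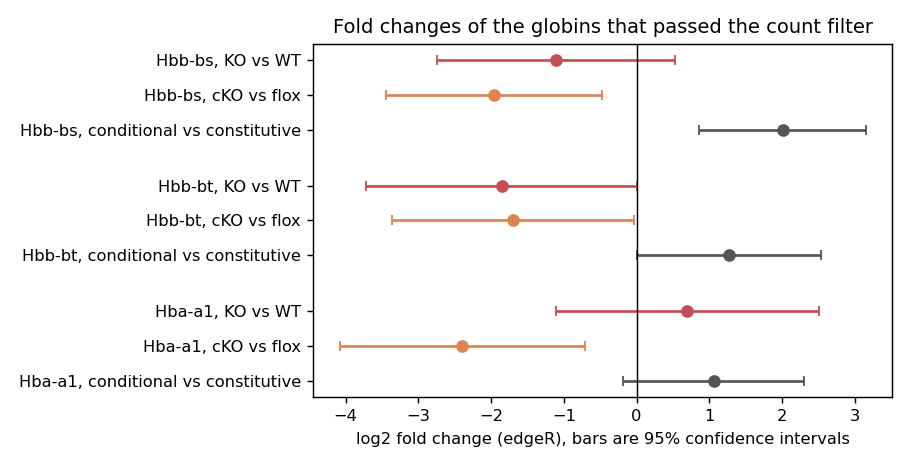
Log2 fold change (x axis) of the 3 adult globins that passed the count filter, in KO against WT, cKO against flox, and conditional against constitutive cross, with 95% confidence intervals from edgeR. All 3 points lie below 0 in cKO against flox (-1.96, -1.70 and -2.40) and above 0 between crosses, and *Hba-a1* alone lies above 0 in KO against WT (0.70).

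*Alas2* was at 0 in all 13 libraries, but this is not a measurement of its RNA. Its whole interval lies inside that of *Apex2*, which had 7 to 129 counts, and the counting was over whole gene intervals, so a read in *Alas2* would fall in both genes unless the counting used strand, which is not stated. *Sycp3* of the oocyte list, wholly inside *Chpt1* on the other strand, was also at 0 in all 13 libraries. The other heme synthesis enzymes are used by every cell. All 8 of them were detected, 6 were tested, 0 passed the adjusted threshold in the KO, cKO and cross comparisons, and their summed level stayed between 180 and 301 CPM. Those with an unadjusted p under 0.05 included *Urod* (1.48 on the log2 scale) in KO against WT and *Fech* (1.10) in cKO against flox. In KO against WT the median log2 fold change of the 6 tested enzymes was -0.38, with 1 higher and 5 lower.

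Other erythroid genes were summed in the same way, and the highest sum was in cKO replicate 2. Of 21 listed, 20 had an identifier in the table, 19 had at least 1 count and 7 were tested, with none past the adjusted threshold. Their summed level was 284 CPM in flox replicate 1 and 409 CPM in KO replicate 3, which had no globin, in a range of 221 to 451 CPM over all libraries. *Slc4a1*, the band 3 anion exchanger of the red cell membrane, had 2 counts in all. *Epb42*, a membrane skeleton protein, had 61 counts in cKO replicate 4 and 7 in cKO replicate 3. The erythroid transcription factor gene *Klf1* had 40 counts in WT replicate 3, 7 in KO replicate 1, 7 in flox replicate 2 and 1 in flox replicate 1. *Car2*, a carbonic anhydrase, had 23, 7 and 18 counts in KO and 0 in all WT (edgeR, adjusted p = 0.85). *Slc25a37*, the mitochondrial iron importer mitoferrin, had 30, 2 and 3 counts in KO and 0 in all WT (edgeR, adjusted p = 0.85). KO and WT did not overlap for 9.41% of all tested genes, and some of these counts were as low as 2 and 3. *Tfrc*, the transferrin receptor that dividing cells of many kinds use, had 6833 counts and was the bulk of this list.

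*Lyz2* was detected in the conditional cross alone. It had no count in the 6 WT and KO libraries, 0, 8 and 16 counts in flox, and 84, 39, 65 and 79 in cKO. The cKO mean was 23.7 ± 5.95 CPM (SD, n = 4) and the flox mean 3.74 ± 3.87 (SD, n = 3), and all 4 cKO libraries were above all 3 flox libraries. Such a lack of overlap was found for 4.91% of all tested genes. *Lyz2* was among the tested genes mainly through its cKO counts, so its lack of overlap is a description. Against a limit of 3 counts per library in the constitutive cross, the level was at least 12.2-fold higher in the conditional cross, at least 19.1-fold higher in cKO and at least 3.01-fold higher in flox. Leaving out any 1 conditional library moved the first bound between 10.4 and 14.2. It moved the cKO bound between 17.8 and 21.3, and the flox bound between 1.41 (without flox replicate 3) and 4.52 (without flox replicate 1). Of the 13086 tested genes, 25 were at 0 in all 6 constitutive libraries, and 3 of these had counts in at least 6 of the 7 conditional libraries: *Lyz2*, *4933440J02Rik* and *9430078K24Rik*. The latter 2 were named after their values were seen. Genes at 0 in all constitutive libraries could pass the filter on low counts only through the conditional libraries, so these counts are a description.

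The test between crosses gave *Lyz2* an edgeR p of 8.06e-05 and an adjusted p of 0.211, and 440 genes (3.36%) were higher in the conditional cross at an unadjusted p under 0.05. At 0 throughout the constitutive cross, *Lyz2* passed the filter on low counts through the conditional libraries alone. This p is therefore not independent of the filter. *Lyz2* passed the adjusted threshold by DESeq2 (adjusted p = 0.000134) and in edgeR without the filter on low counts (adjusted p = 0.00288). The groups were not fully separated, because flox replicate 1 was also at 0. Full separation of the crosses was found for 0.176% of tested genes. The exact permutation test gave p = 0.00816 (adjusted p = 0.147 over 18 tests). In cKO against flox, edgeR gave 2.65 ± 1.56 on the log2 scale (adjusted p = 0.999) and the exact permutation test p = 0.0571 (adjusted p = 0.257). This is the lowest p that the permutation test can give for 4 embryos against 3. *Lyz2* passed the filter mainly through the cKO libraries, where its counts were highest. The edgeR p for cKO against flox is therefore not independent of the filter either.

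*Ptprc* was near the limit of detection, with 5 counts in KO replicate 1, 1.91 CPM, and 0 in the other 12 libraries. No cKO library, in all of which *Lyz2* was present, had a *Ptprc* count. *Ptprc* could not be compared between groups at this depth. Several macrophage genes had counts in some of the libraries with *Lyz2*, and of the 20 listed *Mrc1* and *Cx3cr1* alone had counts in all 6 of them. *Csf1r*, the macrophage growth factor receptor, had 16 counts in cKO replicate 2 and 1 in WT replicate 2, and its 3′ end is overlapped by *Hmgxb3*. *Cd68*, a lysosomal macrophage protein, had 14 counts in cKO replicate 2 and 5 in flox replicate 2. *Tyrobp*, a signalling adaptor of myeloid cells, had 23 counts in cKO replicate 3, 13 in flox replicate 2 and 1 in cKO replicate 1. *Cd163*, a hemoglobin scavenger receptor, had 16 in cKO replicate 4, and *Fcgr1*, an Fc receptor, had 10 in cKO replicate 1, 4 in flox replicate 2 and 2 in cKO replicate 4. *Mrc1*, a mannose receptor, had 1, 77, 8 and 115 counts in cKO. *Cd14*, *Mpeg1*, *Trem2*, *Spi1* and *Lyz1* were at 0 in all 13 libraries.

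Of 20 macrophage genes, 15 had at least 1 count and 4 were tested, with none past the adjusted threshold. Their summed level was 12.8 to 57.6 CPM in cKO, 26.8 to 52.9 in flox, 41.2 to 88.5 in WT and 59.8 to 115 in KO, and the order of these groups was unlike that of *Lyz2*. *Mrc1* had counts in every library, 976 in all, and made up the largest part. KO replicate 3, the library with no globin, had 149 counts of *C1qc* and 17 of *C1qa*, complement subunits of macrophages. It also had 65 of *Aif1* and 19 of *Fcer1g*, which these cells use as well. *C1qc* was at 0 in the other 12 libraries. *C1qb*, a further subunit of the same complex, had 17, 22 and 1 counts in KO replicates 1 to 3. *Tyrobp*, *Csf1r*, *Adgre1*, *Cd68* and *Laptm5* were at 0 in KO replicate 3, and *Mrc1* had 2 counts there. In KO against WT, *Tyrobp* (0 in WT, 48 counts in KO replicate 2) and *Cx3cr1* had an unadjusted p under 0.05, in opposite directions. *Cx3cr1* overlaps 9 other genes, and its counts are uncertain.

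Of 12 other blood genes, 4 had counts. The neutrophil genes *S100a8* and *S100a9* had 38 and 58 counts in flox replicate 2, and 7 and 19 in cKO replicate 3. *Itga2b*, a platelet integrin, had 44 counts in KO replicate 1, the library with the *Ptprc* counts. *Mpo*, myeloperoxidase, had 2 counts in flox replicate 2. Flox replicate 2 and cKO replicate 3 had counts of the globins, *Lyz2* and both S100a genes. Flox replicate 1, the highest in globin, had 0 for *Lyz2*, *Ptprc*, *S100a8* and *S100a9*.

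**Figure D5:**
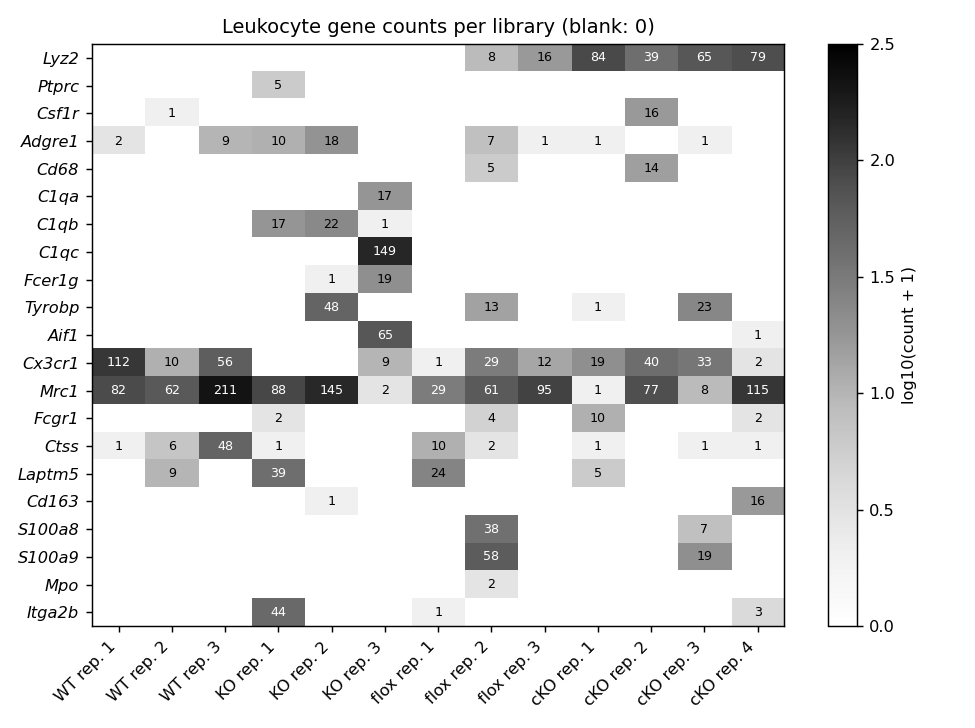
Counts of *Lyz2*, *Ptprc* and of the other leukocyte genes with at least 1 count (y axis) in each library (x axis), shaded on a log10(count + 1) scale, with blank cells at 0. *Lyz2* is filled for flox and cKO only, up to 84 counts, while *C1qc* (149 counts) and *Aif1* (65 counts) stand in KO replicate 3.

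Across the 13 libraries, the adult globins moved together in part. Between log2 CPM of *Hbb-bs* and *Hbb-bt*, Pearson's r was 0.892 (permutation p = 6e-04, adjusted p = 0.0048) and Spearman's rho 0.681 (permutation p = 0.0127, adjusted p = 0.0569). The corresponding values were 0.88 and 0.379 for *Hba-a1* with *Hbb-bs*, and 0.805 and 0.445 for *Hba-a1* with *Hbb-bt*, with permutation p of 0.00426 and 0.00744 for r and 0.2 and 0.128 for rho. Without KO replicate 3 and flox replicate 1, r over the other 11 libraries was 0.581, 0.202 and 0.144, so the pooled r of *Hba-a1* with either beta gene rested on these 2 libraries. Within the crosses, r between *Hbb-bs* and *Hbb-bt* was 0.869 in the constitutive cross (n = 6) and 0.809 in the conditional cross (n = 7). For *Hba-a1* with *Hbb-bs* r was 0.902 and 0.805 and rho 0.371 and 0.286 in the same order. For *Hba-a1* with *Hbb-bt* r was 0.733 and 0.926 and rho 0.314 and 0.929, so the ranks of this pair ran together within the conditional cross. *Hbb-bs* did not follow depth (r = 0.107 with log2 total count). Its r with the summed macrophage genes was negative (r = -0.596, rho = -0.654), with r of -0.523 and -0.27 within the crosses, and -0.734 without cKO replicates 1 and 3. Its r with endothelial genes was 0.675 in all libraries, 0.811 in the constitutive cross and -0.69 in the conditional cross, and the pooled value rested on KO replicates 2 and 3 (0.0436 without them). With ovarian somatic genes r was 0.456 and with fetal oocyte genes -0.51, and the part of any of these levels in the globin values was not tested. The points share their library sizes, and 8 such relations were computed, over which the p-values were adjusted.

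Among 17345 genes outside the globin, heme and erythroid lists, the 5 whose CPM ranked most like the summed globins over the 13 libraries were *4933417C20Rik* (rho = 0.933), *Itgb1bp1* (0.929), *Gm29114* (0.890), *Cldn4* (0.871) and *Stra8* (0.852). *Itgb1bp1* had counts in 12 libraries, as the globins did, and the others in 5 to 8. For the sum of *Lyz2* and *Ptprc* the closest of 17344 genes were *Wipf2* (rho = 0.910), *Elmod1* (0.903), *Man1b1* (0.881), *Tmem129* (0.863) and *Prdx2* (0.861). *Gm29114* and *Elmod1* had only 18 and 17 counts in all. The highest rho among so many genes over 13 libraries can be high by chance, so these lists are a description and were not tested.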

How the data were processed

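For each of the 13 embryos the authors deposited raw read counts per gene, made with STAR 2.6.0 on mm10 and featureCounts 1.6.3 per the labels. The annotation, strand setting and treatment of multi-mapping reads are not given in the sources used here. The length column equals the whole gene interval for all 55335 genes. Deposited comparison tables hold the authors' log2 fold changes, mean expression, t statistics, p-values, adjusted p-values and log-odds, and were not used. Of the identifiers, 54587 matched GENCODE M21 exactly, 567 without the version, and 181 did not match.

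Counts were fitted with edgeR 4.0.16 (R 4.3.3) by the quasi-likelihood test: 1 mean per group over all 13 libraries, TMM scaling, filterByExpr (minimum count 10, minimum total 15) and Benjamini-Hochberg adjustment over 13086 genes, with a threshold of 0.05. DESeq2 1.42.0, limma 3.58.1 (voom), RLE scaling, no filter, fits of 2 groups only, a replicate block and leaving out each library were alternatives. Single genes were also compared by two-sided exact permutation tests of log2 CPM (prior count 2), 18 in all. Correlations over 13 libraries used 100000 permutations. Shares have 95% Clopper-Pearson intervals, and a count of 0 allows 3 counts. A gene with 0 in all libraries stayed out of the fits. The genes named are the 9 members, lists of heme, erythroid, macrophage, other blood, endothelial, somatic and oocyte genes, and the 5 genes closest in rank to each sum. The members and lists were chosen with earlier results of these data known. Promoter sequences and start sites are from RefSeq, GRCm38.p6, for the 6 globin genes, all of which matched. Values of some listed genes are not reported here.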

Additional observations from a re-analysis of the deposited data

Results flagged for a closer look

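Values of single libraries were compared with the others of their group by Dixon's rule, in groups of 4 to 7. Chance marks about 1 in 20 groups if values are normally distributed, a rate that does not hold for CPM with many zeros. Flox replicate 1 was far above the other conditional libraries for *Hba-a1* (388 CPM), *Hba-a2* (75.2 CPM), *Hbb-bs* (668 CPM) and the summed adult globins (1308 CPM). *Hba-a2* was far above the other constitutive libraries in WT replicate 2 (7.01 CPM), where 5 of 6 were at 0. *Ptprc* was at 1.91 CPM in KO replicate 1 and 0 in the other 5 constitutive libraries. A gene with counts in only 1 library of a group is always marked by this rule, as for these values of *Hba-a2* and *Ptprc*. The summed adult globins of cKO replicate 2 (77.2 CPM) lay below the other 3 cKO libraries, which were at 175 to 193 CPM.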

How the results depend on the processing

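Counts of genes past the adjusted threshold moved with the tool and the filter. In KO against WT the count was 0, with 759 genes at an unadjusted p under 0.05, but 12 by DESeq2, 15 with no filter on low counts, and 0 to 2 on leaving out each library. In cKO against flox it was 0 (417 genes at an unadjusted p under 0.05), 5 and 11 in the same order, and 0 throughout on leaving out each library. Between crosses it was 1, then 35 by either change, 1 to 11 on leaving out each library (4 without KO replicate 3 and 11 without WT replicate 3), and 4 without both flox replicate 1 and KO replicate 3, an alternative chosen after seeing the data. For the difference of the KO and cKO effects it was 0 (572 genes at an unadjusted p under 0.05), then 10 and 8, and 0 throughout on leaving out each library. The cause was not tested.

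The direction turned with limma voom for *Hba-a1* in KO against WT (-1.50) and for *Hbb-bs* in the difference of effects (-1.32). On leaving out each library, the difference of effects ran from -0.48 to 1.52 for *Hbb-bs* and from -1.90 to 0.61 for *Hbb-bt*. The difference of mean log2 CPM ran from -1.997 to 1.35 for *Hba-a1* in KO against WT and from -0.23 to 1.22 for *Hba-a2* between crosses. For cKO against flox it kept its sign for the 4 adult globins and *Lyz2*.

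Same-numbered embryos did not deviate together (correlations of -0.023 to 0.063 over 13086 genes), so the numbers do not pair samples. With the replicate block 0 genes passed in KO against WT and in cKO against flox, and 1 between crosses, as without it. Depth limits *Ptprc*, *Hba-a2* and the leukocyte genes, which had few counts.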
